A study of Mus musculus with 7 samples.

Results

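The same induced pluripotent stem (iPS) cell line, O4-1, was measured in 2 media on 1 Affymetrix expression array each, and the 2 arrays were compared across 19938 genes. These were 2 of the 7 arrays of a mouse series, each loaded with the RNA of 1 culture. Genes were taken through probe sets with exactly 1 gene symbol, and a gene with several was represented by the probe set whose mean over the 7 arrays was highest. Values are log2 expression, so a difference of 1.00 is a 2-fold difference.

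Line O4-1 was made from mouse embryonic fibroblasts infected with Oct4, and its sister lines O4-2 and O4-4 were made the same way. The O4-1 cells were grown in KSR on 1 array and in N2B27(2i) on the other. Lines O4-2 and O4-4 were each grown in KSR on 1 array. The remaining 3 arrays held OG2 embryonic stem (ES) cells in N2B27(2i), and fibroblasts of 129/OG2 embryos in FBS or in iCD1. The labels give no age for the cells, no passage, no feeder layer and no statement on whether a line was 1 clone, and they do not say that the lines came from separate infections. The spread between the 3 KSR lines is therefore only the spread between these arrays. Other label fields contradict the titles: every description speaks of iPS cells shortly after retroviral infection, the source field names iCD1 for the iPS samples and fibroblasts for the ES sample. Groups follow the titles and the growth conditions.

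KSR in this field usually stands for knockout serum replacement, a commercial stand-in for serum, while N2B27 is a defined serum-free medium. 2i is a pair of inhibitors, of MEK, the kinase that activates ERK, and of GSK3, which marks beta-catenin for destruction. Mouse pluripotent cells in 2i are known to settle in the naive ground state, with Klf, Tfcp2l1 and Tbx3 transcription factors high and with genes of the formative and primed states, such as Otx2, Fgf5 and the de novo DNA methyltransferases, low. Base medium and inhibitors differ together between the O4-1 cultures, so that their parts in any difference cannot be told apart. With 1 array a medium there is no test, and every difference below is a description of these arrays.

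In O4-1, 96 genes (0.481% of those compared) were 2-fold or more higher in 2i than in KSR, and 190 genes (0.953%) were 2-fold or more lower. The median difference over all genes was 0.01, and 10338 genes (51.9%) were higher in 2i by some amount. The largest differences among genes above the median level of their array were Scd1, a fatty acid desaturase, at 5.19-fold higher, and Enpp3, an ectonucleotidase, at 9.29-fold lower. The higher genes led with lipid desaturation (Scd1, Scd2) and naive pluripotency (Tfcp2l1, Tbx3). Among the lower ones were germline (Sycp1), endocytic (Cubn, Lrp2), formative (Otx2, Grhl2) and de novo methylation genes (Dnmt3l).

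**Figure D1:**
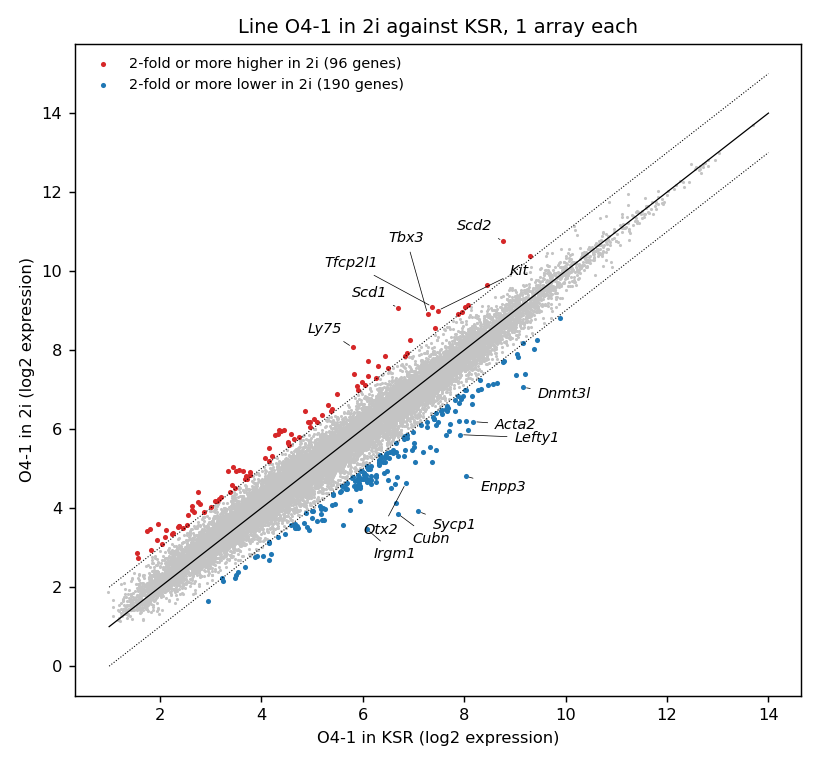
Log2 expression of 19938 genes in O4-1 in KSR (horizontal axis) against O4-1 in 2i (vertical axis), 1 array each, with the line of equality and dotted lines at a 2-fold difference. Red points are the 96 genes that were 2-fold or more higher in 2i, blue points the 190 that were 2-fold or more lower, and named points are among the largest differences.

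The number of genes apart was of the size seen between KSR lines. O4-1 in its 2 media differed 2-fold or more in 286 genes (1.43%). Between KSR lines the count was 122 genes (0.612%) for O4-2 against O4-1, 310 (1.55%) for O4-4 against O4-1 and 564 (2.83%) for the pair O4-4 and O4-2. The 2i culture of O4-1 differed from O4-2 in KSR in 464 genes (2.33%), from O4-4 in KSR in 193 (0.968%) and from the ES cells in 2i in 195 (0.978%). So by this count the 2i array lay nearer to O4-4 in KSR and to the ES cells than to its own line in KSR. These comparisons share arrays, the O4-1 arrays above all, and are not independent of each other. The KSR pairs split evenly by direction, with 155 genes higher and 155 lower in O4-4 than in O4-1, while between the media of O4-1 96 were higher and 190 lower.

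**Figure D2:**
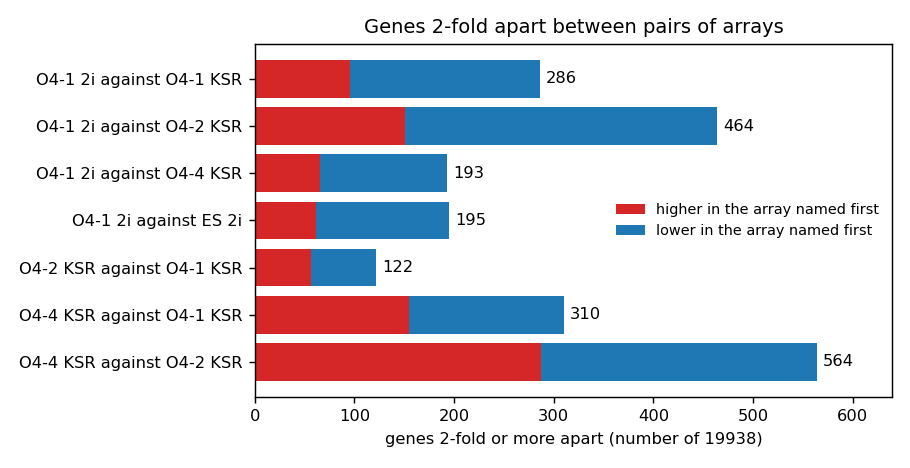
Number of genes that were 2-fold or more apart between pairs of arrays, of 19938 genes, split into those higher (red) and lower (blue) on the array named first. The 286 genes between the media of O4-1 lie between the 122 and the 564 genes of the pairs of KSR lines.

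Much of the difference between the O4-1 cultures was also present between KSR lines. Over all genes, the 2i value lay above the highest of the 3 KSR lines in 5465 (27.4%) and below the lowest in 4716 (23.7%). Of the 96 higher genes 79 lay above all KSR lines and 17 did not, and in all 17 the array of O4-4 in KSR was at or past the 2i value. Of the 190 lower genes 145 lay below all KSR lines and 45 did not. Here O4-4 was at or past the 2i value in 34 genes and O4-2 in 12. Since the 2i value helped choose these genes, the shares that lie beyond the KSR lines are given as a description. Against the mean of the 3 KSR lines in place of O4-1 alone, 36 genes were higher by 2-fold or more and 94 lower, of which 29 and 74 were among the genes above.

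A stricter count, 2-fold or more beyond every KSR line, held 8 genes above (0.0401%) and 9 genes below (0.0451%). Line O4-4 limited this count: without it, 38 genes lay above and 102 below the other 2 lines. Of the 8 above, Pfkp, the platelet form of the glycolytic enzyme phosphofructokinase, was the only gene at a level over the array median. It was at 8.07, 7.91 and 7.35 in O4-1, O4-2 and O4-4 in KSR, at 9.13 in O4-1 in 2i and at 9.16 in the ES cells in 2i. Thus both 2i cultures lay above all 3 KSR cultures. Mgarp, which codes for a mitochondrial protein, went from 3.35 in KSR to 4.94 in 2i and stood at 4.91 in the ES cells. The olfactory receptor genes Olfr113, Olfr248, Olfr967 and Olfr1085, the transcription factor Neurod6 and the unnamed 4930505O20Rik made up the rest. They were at 3.26 to 4.16 in 2i, under the array median of 5.00, and the deposited values carry no measure of signal over background.

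The 9 genes below all KSR lines included genes of the actin cytoskeleton and of secreted factors. Acta2, smooth muscle actin, was at 8.18, 9.12 and 7.79 in the KSR lines and at 6.19 in 2i, beside 6.18 in the ES cells. Irgm1, an interferon-inducible GTPase, was at 6.08, 5.82 and 5.36 in KSR and at 3.47 in 2i, a 6.09-fold difference within O4-1, with the ES cells at 3.99. In both genes the 2i cultures did not overlap the KSR lines. Thbs1 (thrombospondin), Anxa1 (an annexin), Cnn2 (a calponin), the growth factor Csf1 and the chemokine Cxcl5 differed by -1.24, -1.16, -1.12, -1.31 and -1.28 within O4-1. For Thbs1, Anxa1 and Cnn2 the ES cells in 2i, at 8.61, 7.15 and 7.23, were closer to the KSR lines than to O4-1 in 2i. The carbonyl reductase gene Cbr3 was at 4.94 in O4-1 in 2i but at 6.39 in the ES cells and 5.99 to 6.50 in KSR. Cox7b2, at 3.91 in KSR and 2.79 in 2i, was under the array median throughout.

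Both O4-1 arrays carried the marks of pluripotent cells. Pou5f1 (Oct4), the factor at the root of pluripotency, was at 10.99 in O4-1 in KSR and 10.77 in 2i, against 3.40 and 4.04 in the fibroblasts in FBS and in iCD1. The array cannot tell the endogenous transcript from one made by the virus, as the probed bases are not used here. Averaged over 20 core pluripotency genes, the mean level was 9.53 in KSR and 9.38 in 2i, beside 4.94 and 4.89 in the fibroblasts. Genes of the sex chromosomes were listed as a possible mark of line identity, and all 6 measured were lower in O4-1 in 2i. Of these, 5 lay below every KSR line (background 23.7%) and 1, Kdm5d, was 2-fold or more lower (background 0.953%). Measured from O4-1 in KSR, the list median was -0.45 in O4-1 in 2i, -0.38 in O4-2, -0.07 in O4-4 and -1.25 in the ES cells. By this median the 2i array lay no nearer to O4-1 in KSR than the sister lines did, so the list did not mark line identity. The cause was not tested. The Y-linked Kdm5d was at 6.14, 5.17 and 6.0 in the KSR lines, at 4.70 in O4-1 in 2i and at 3.38 in the ES cells, and Eif2s3y was at 8.14 in KSR and 7.39 in 2i. Zfy1, also Y-linked, was at 5.56 and 5.30 in the O4-1 arrays against 3.53 in O4-2, 5.26 in O4-4 and 2.56 in the ES cells.

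Naive pluripotency genes were higher in 2i as a group. Of 20 measured, 17 were higher (background 51.9%), 2 of them 2-fold or more (background 0.481%), and 1 was 2-fold or more lower (background 0.953%). Their median difference was 0.38 against 0.01 over all genes. From the same O4-1 KSR array, the list median was -0.45 in O4-2 and 0.49 in O4-4 in KSR. Tfcp2l1, a transcription factor that LIF and GSK3 inhibition both act through, was at 7.37 in O4-1 in KSR and 9.10 in 2i, a 3.33-fold difference. It was at 6.70 in O4-2 and 9.68 in O4-4 in KSR and at 9.79 in the ES cells, so O4-4 in KSR was at or above the level of O4-1 in 2i. Tbx3, a T-box factor of the naive network, was at 7.28, 6.74 and 8.87 in KSR, 8.91 in O4-1 in 2i and 8.63 in the ES cells. The KSR lines thus differed by more than 2-fold in both genes, and their mean ± SD was 7.92 ± 1.56 for Tfcp2l1 and 7.63 ± 1.11 for Tbx3 (n = 3).

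Smaller differences ran through the other naive factors. Tet2, which oxidises methylcytosine, differed by 0.92, Tcl1, an Akt coactivator, by 0.79, the surface protein gene Pecam1 by 0.78, and the Krüppel-like factors Klf5, Klf4 and Klf2 by 0.76, 0.71 and 0.29. In Klf5 the 3 KSR lines at 8.36, 8.24 and 8.76 all lay below the 2i cultures at 9.12 and 8.95. Klf4 showed the same separation, at 8.15, 8.02 and 8.72 in KSR against 8.85 and 9.11. Prdm14, a repressor of FGF signalling and of de novo methylation, was at 6.01 in KSR and 6.62 in 2i, within the range set by 5.24 in O4-2 and 7.18 in O4-4. In all, 9 of the 20 genes lay above every KSR line, a share to be read beside the 27.4% of all genes that did.

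Dppa3 (Stella), a maternal factor that guards methylation in the early embryo, went the other way. It was at 7.02, 6.57 and 7.32 in the KSR lines, at 5.64 in O4-1 in 2i and at 5.25 in the ES cells, and both of its probe sets, which near-identical gene copies may also feed, were lower in 2i, by -1.38 and -1.97. The 2i cultures lay apart from the KSR lines here too, on the low side. Of the core genes, Nanog, a homeobox factor, was at 10.16 in KSR and 11.15 in 2i, with O4-4 in KSR at 11.55. Esrrb, an orphan nuclear receptor and GSK3-responsive member of the network, was at 7.78 and 8.54, and the KSR lines O4-2 and O4-4 at 7.0 and 8.41. Sox2 and Zfp42 (Rex1) differed by 0.26 and 0.20. Lin28a, an RNA-binding protein that blocks let-7 maturation, was at 9.05, 9.05 and 8.03 in KSR, 7.91 in 2i and 7.19 in the ES cells. It was the only core gene 2-fold or more apart, and the median difference over the 20 core genes was -0.06.

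The formative and primed genes lay mostly on the lower side. Of 21 measured, 7 were 2-fold or more lower in 2i (background 0.953%), none was 2-fold or more higher, and the median difference was -0.72. Otx2, the homeobox factor that drives exit from the naive state, was at 6.85 and 6.43 in O4-1 and O4-2 in KSR and at 4.63 in O4-1 in 2i, a 4.67-fold difference within O4-1. Yet O4-4 in KSR was lower still at 4.50, and the ES cells were at 5.16. Grhl2, a Grainyhead factor that opens epithelial enhancers in formative cells, was at 6.64, 6.43 and 5.43 in KSR, 4.61 in 2i and 4.40 in the ES cells. Unlike in Otx2, every KSR line lay above both 2i cultures.

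Pim2 (a serine/threonine kinase), Epha1 (an ephrin receptor) and Cldn6 (a claudin of tight junctions) differed by -1.53, -1.37 and -1.15. Fgf5, the classical growth factor of the primed epiblast, was at 5.63, 6.22 and 4.44 in KSR and at 4.65 in 2i, just under 2-fold within O4-1 and within the range of the KSR lines. Lin28b, the let-7 regulator next of kin to Lin28a, differed by -0.84, and Sfrp2, a secreted Wnt modulator, by -0.72. Pou3f1 (Oct6) was at 9.72 in KSR and 9.32 in 2i, a difference of -0.40, with the ES cells at 9.44. Zic2 and Sox3 stood at -0.03 and 0.08. Foxd3, a forkhead factor, had the highest difference of the list at 0.77, at 2.80 in KSR and 3.57 in 2i, under the array median. For the whole list the median against O4-1 in KSR was 0.36 in O4-2 and -0.83 in O4-4, values that share the O4-1 KSR array with the medium comparison.

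All de novo methylation enzymes were lower in 2i. Dnmt3l, the catalytically inactive cofactor, was at 9.16 in O4-1 in KSR and 7.06 in 2i, a 4.29-fold difference, beside 8.99 in O4-2, 5.54 in O4-4 and 6.74 in the ES cells. Dnmt3b, an active enzyme, was at 8.56, 8.84 and 7.31 in KSR, 7.14 in 2i and 7.01 in the ES cells, and Dnmt3a was at 7.93, 7.96 and 6.39 in KSR, 6.76 in 2i and 5.92 in the ES cells. O4-4 was the lowest KSR line in all 3 genes. It lay near the 2i cultures in Dnmt3b and Dnmt3a and below both of them in Dnmt3l. The maintenance enzyme Dnmt1 differed by -0.12 and its partner Uhrf1 by 0.52, while Hells, a remodeller needed for methylation of repeats, differed by -0.69. Of the 13 genes of DNA methylation measured, the 3 de novo genes were the ones 2-fold or more lower (background 0.953%).

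**Figure D3:**
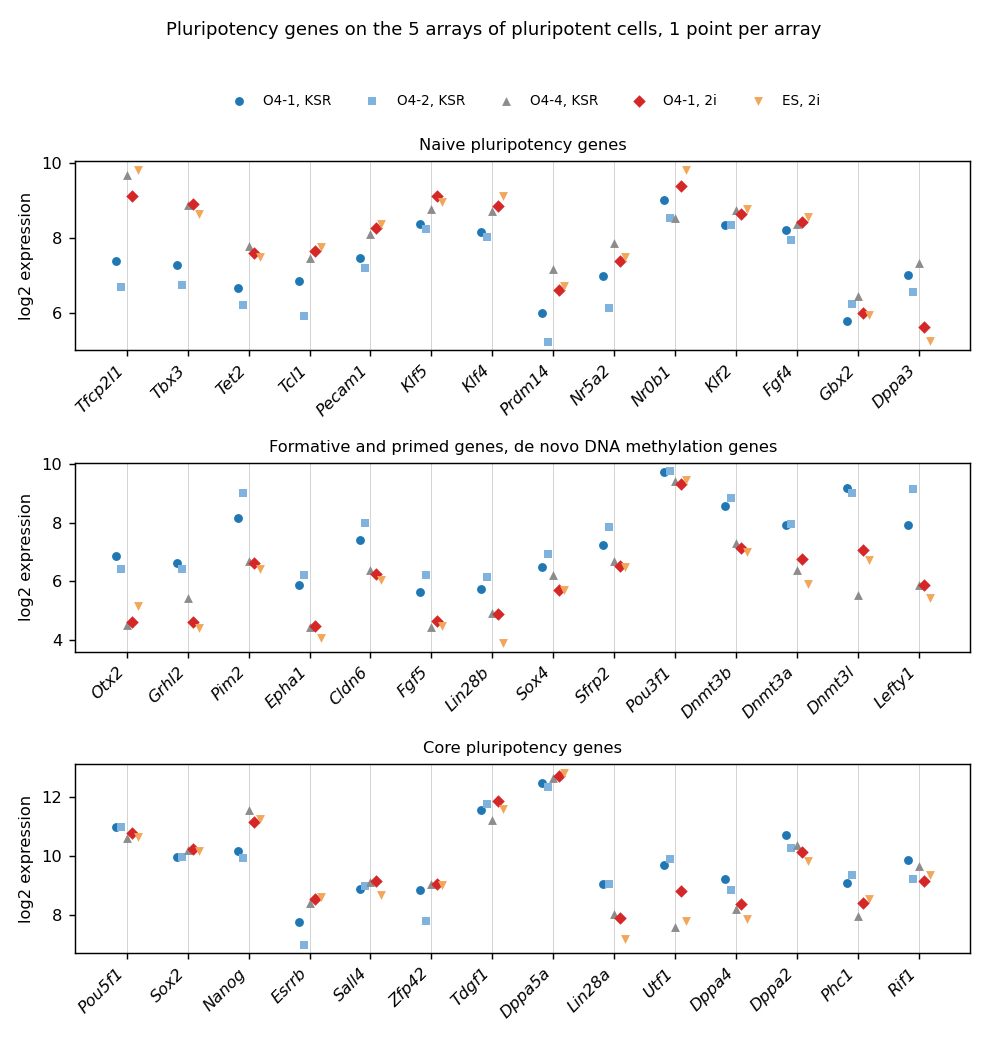
Log2 expression of naive genes (top), formative, primed and de novo methylation genes with Lefty1 (middle) and core pluripotency genes (bottom) on the 5 arrays of pluripotent cells, 1 point per array. For Tfcp2l1 and Otx2 the grey triangle of O4-4 in KSR lies with the 2i cultures rather than with the other KSR lines. For Dnmt3l it lies below both 2i cultures. In Dppa3 and Klf5 all KSR lines lie on one side of both 2i cultures.

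Targets of the inhibited pathways showed few large differences. Of 23 ERK feedback and target genes, Myc alone was 2-fold or more apart. This growth-promoting transcription factor was at 6.98, 7.02 and 6.0 in KSR, 5.46 in 2i and 5.57 in the ES cells. The ERK phosphatase genes Dusp6 and Dusp4 differed by -0.47 and -0.44, the inhibitor genes Spry2 and Spred1 by -0.39 and -0.64, and the immediate early gene Egr1 was 0.91 higher in 2i. Dusp6 was at 7.83 and 8.17 in O4-1 and O4-2 in KSR, 7.36 in O4-1 in 2i and 5.75 in O4-4 in KSR. The list median was -0.10. Etv4 and Etv5, ETS factors downstream of FGF, differed by 0.11 and 0.16, and Spry4 by 0.40.

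Wnt/beta-catenin targets had a median difference of 0.07 over 16 genes, with none 2-fold apart. Axin2, the feedback gene read most often, was at 5.57 in O4-1 in KSR, 6.02 in 2i and 7.13 in O4-4 in KSR, and Cdx1, a caudal homeobox gene, at 5.72, 6.42 and 6.93. Lef1 differed by -0.91 and the receptor gene Fzd7 by -0.51. Sfrp1, a secreted Wnt antagonist outside that list, was at 5.50, 6.01 and 6.71 in KSR, 6.88 in 2i and 7.87 in the ES cells. Genes of LIF and STAT3 signalling had a median of 0.07 over 14 genes: Socs3, the feedback inhibitor, differed by 0.37, Stat3 by -0.01 and Osmr, the oncostatin receptor, by -0.71. Of 17 Nodal, activin and TGF-beta genes, Lefty1, a secreted Nodal antagonist, was 2-fold or more lower at 7.92 in KSR against 5.86 in 2i, where O4-2 had 9.15, O4-4 had 5.86 and the ES cells 5.45. Its neighbour in function Lefty2 differed by 0.32, the ligand Nodal by -0.39 and the intracellular inhibitor Smad7 by 0.41. BMP and Id genes had a median of -0.05 over 16 genes, with Id3 at -0.66.

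Lipid synthesis was higher in 2i across both of its branches. Of 14 fatty acid synthesis genes 13 were higher (background 51.9%), 3 of them 2-fold or more (background 0.481%), with a median of 0.66. Against the mean of the 3 KSR lines the median was 0.40. Scd1, which puts the double bond into stearate, was at 6.70, 7.03 and 8.41 in KSR, 9.07 in 2i and 9.55 in the ES cells. Scd2, its paralog, was at 8.77, 9.16 and 10.45 in KSR, 10.76 in 2i and 11.08 in the ES cells, a 3.97-fold difference within O4-1. Both 2i cultures lay above all KSR lines in the 2 desaturases, with O4-4 the nearest. The KSR mean ± SD was 7.38 ± 0.91 for Scd1 and 9.46 ± 0.88 for Scd2 (n = 3).

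Further along the pathway, the desaturases of polyunsaturated fatty acids Fads1 and Fads2 differed by 1.01 and 0.96, the elongase gene Elovl5 by 0.78, and Acaca, the enzyme of the committed step, by 0.80. Fads1 was at 7.95, 8.25 and 8.61 in KSR, 8.97 in 2i and 9.16 in the ES cells. Fasn, the synthase itself, was at 8.46 in O4-1 in KSR and 8.86 in 2i, but at 8.79 and 9.16 in O4-2 and O4-4. Elovl7, a further elongase gene, was 3.09-fold higher in 2i at 4.35 against 5.98, with O4-4 in KSR at 6.46. Gpam, which starts triglyceride assembly, was the list member below 0, at -0.11. For the list, the median against O4-1 in KSR was 0.25 in O4-2, 0.65 in O4-4 and 0.86 in the ES cells, all sharing the O4-1 KSR array.

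In the cholesterol branch, 19 of 20 genes were higher in 2i (background 51.9%), the median difference was 0.47, and 12 lay above every KSR line (background 27.4%). From the same O4-1 KSR array, the list median was 0.19 in O4-2, 0.42 in O4-4 and 0.93 in the ES cells. Msmo1, a sterol methyl oxidase, was at 9.30, 9.73 and 9.94 in KSR, 10.38 in 2i and 10.73 in the ES cells, and was the member 2-fold or more apart. Lss (lanosterol synthase) and Dhcr7, which makes the last step to cholesterol, differed by 0.91 and 0.82, and Srebf2, the transcription factor that drives the branch, by 0.65. The set point gene Insig1 was at 9.74 in O4-1 in KSR and 10.46 in 2i, equal to the 10.46 of O4-4 in KSR. Mvk, at -0.01, was the member not higher. Against the mean of the 3 KSR lines the list median was 0.26. The 7 efflux genes had a median of 0.36, beside 0.3 for O4-4 in KSR from the same O4-1 array. Apoe, the lipid carrier, was at 8.62 in KSR and 9.11 in 2i. Fatty acid oxidation genes had a median of -0.05 over 15 genes, and the promoter motif CCAAT, searched on both strands after values were seen, was present for 16 of 16 cholesterol genes with a promoter in the RefSeq table against 41.1% of all genes there, and for 7 of 11 fatty acid genes.

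Of 17 glycolysis genes 16 were higher in 2i (background 51.9%), with a median of 0.51, and 13 lay above all KSR lines (background 27.4%). Aldoc, the brain form of aldolase, was at 6.31, 6.83 and 6.07 in KSR, 7.59 in 2i and 8.09 in the ES cells. Hk2, the inducible hexokinase, was at 8.45, 8.75 and 9.08 in KSR, 9.64 in 2i and 9.73 in the ES cells. With Pfkp these were the members 2-fold or more apart, all of them higher (background 0.481%). Unlike for naive and lipid genes, O4-4 was below O4-1 in KSR at the median: the list median against O4-1 in KSR was 0.23 in O4-2 and -0.26 in O4-4, with the O4-1 KSR array shared.

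Differences in the other members were smaller. Aldoa was at 11.23, 11.46 and 11.32 in KSR and 11.96 in 2i, Pgk1 (phosphoglycerate kinase) at 10.23, 10.59 and 9.89 against 10.92, and the neuronal-type glucose transporter Slc2a3 at 10.67, 10.90 and 10.69 against 11.34. All 3 had the 2i value above every KSR line. Ldha (lactate dehydrogenase) and Tpi1 (triose phosphate isomerase) differed by 0.61 and 0.68. Pfkm, the muscle phosphofructokinase, stood at -0.12, and Hk1 at 0.06. Gys1, muscle-type glycogen synthase, was 2.68-fold higher, at 6.43, 7.06 and 6.96 in KSR, 7.85 in 2i and 8.0 in the ES cells. Respiratory chain genes had a median of 0.01 over 23 genes, with none 2-fold apart.

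Hypoxia response genes had the same direction, with 16 of 19 higher (background 51.9%), a median of 0.43 and 11 above all KSR lines (background 27.4%). The list median of O4-2 in KSR against the same O4-1 array was 0.42, and that of O4-4 was -0.04. Bnip3, a mitophagy receptor, was at 8.01, 8.83 and 6.42 in KSR, 9.08 in 2i and 9.01 in the ES cells, a difference of 1.07 within O4-1. Its other probe set gave 0.60, so the 2-fold size rests on the probe set used. Ndrg1, a stress-response gene, was at 6.87, 7.49 and 6.87 in KSR, 7.94 in 2i and 8.58 in the ES cells. The oxygen sensor gene Egln1, the oxidoreductase gene Ero1a and the growth factor gene Vegfa differed by 0.98, 0.96 and 0.92. Not all members were higher: Adm (adrenomedullin) was at -0.51 and Pdk1, a kinase that inhibits pyruvate dehydrogenase, at -0.21. Ak4, a mitochondrial adenylate kinase outside the list, was at 6.93 in KSR and 8.25 in 2i, and its other probe set differed by 0.73.

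The core of the hypoxia response element, ACGTG, bound by HIF factors, was searched on both strands from 250 bases before to 50 bases after the start of each gene. It was present for 12 of the 16 glycolysis genes with a promoter in the RefSeq table (75.0%) and for 13 of 17 hypoxia genes (76.5%), against 21.8% of all 27025 genes in that table. The lists are of textbook targets of HIF, so this share describes the lists and not the medium. The promoters of Hk2, Bnip3 and Aldoc are shown because these genes were 2-fold or more higher in 2i and hold the letters. They are from RefSeq, build GRCm38.p6, 5′ to 3′ on the strand of the gene, with ACGTG or its reverse complement CACGT in capitals. Hk2 lies at chr6:82774405-82774704 on the minus strand, Bnip3 at chr7:138909457-138909756 on the minus strand, and Aldoc at chr11:78322823-78323122 on the plus strand.

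Hk2: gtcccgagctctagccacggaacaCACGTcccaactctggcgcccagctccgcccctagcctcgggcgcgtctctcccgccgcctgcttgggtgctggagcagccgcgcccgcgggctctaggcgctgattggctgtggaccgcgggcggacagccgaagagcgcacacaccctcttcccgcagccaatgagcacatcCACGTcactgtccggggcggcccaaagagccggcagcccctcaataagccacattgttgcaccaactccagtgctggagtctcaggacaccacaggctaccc
Bnip3: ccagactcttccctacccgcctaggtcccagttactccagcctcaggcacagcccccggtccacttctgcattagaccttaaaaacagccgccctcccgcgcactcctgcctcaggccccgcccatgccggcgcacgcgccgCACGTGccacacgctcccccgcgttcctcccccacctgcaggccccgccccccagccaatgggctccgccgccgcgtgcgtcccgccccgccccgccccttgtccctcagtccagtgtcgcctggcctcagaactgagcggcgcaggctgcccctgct
Aldoc: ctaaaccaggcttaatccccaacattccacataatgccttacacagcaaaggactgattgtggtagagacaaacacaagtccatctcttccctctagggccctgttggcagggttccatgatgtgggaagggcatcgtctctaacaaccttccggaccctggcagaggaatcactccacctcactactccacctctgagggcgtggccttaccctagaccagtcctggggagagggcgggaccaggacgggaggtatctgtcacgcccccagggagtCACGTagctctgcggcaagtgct

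In Hk2 the letters started at 226 and 52 bases before the start, both as CACGT. In Bnip3 the matches on either strand overlap in 1 palindrome, CACGTG, and count as 1 place. In Aldoc the match lay after the start, and a second start of Aldoc in the table held 0 matches. A match is a description of letters, not a bound site.

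Of 29 serine synthesis genes and ATF4 targets 23 were higher (background 51.9%), none 2-fold, with a median of 0.27. Against the same O4-1 KSR array the list median was 0.28 in O4-2 and 0.04 in O4-4 in KSR, and 0.08 in the ES cells in 2i. Against the mean of the 3 KSR lines the median of O4-1 in 2i was 0.16. Asns (asparagine synthetase) was at 10.86, 10.96 and 11.71 in KSR and 11.74 in 2i, Nupr1, a stress cofactor, differed by 0.96, and Cth, which makes cysteine, by 0.79. The stress sensor Sesn2 and the arginine transporter Slc7a3 were lower, by -0.64 and -0.59. The amino acid response letters TGATGNAAT were present for 2 of 25 of these genes (8.0%), against 1.08% of all genes in the promoter table. Other letters searched were CTTTGNT in 4 of 10 Wnt targets against 20.9% of all genes, TTCNNNGAA in 3 of 13 LIF and STAT3 genes against 9.55%, and TGACNNNGC in 5 of 11 NRF2 genes against 14%.

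**Figure D4:**
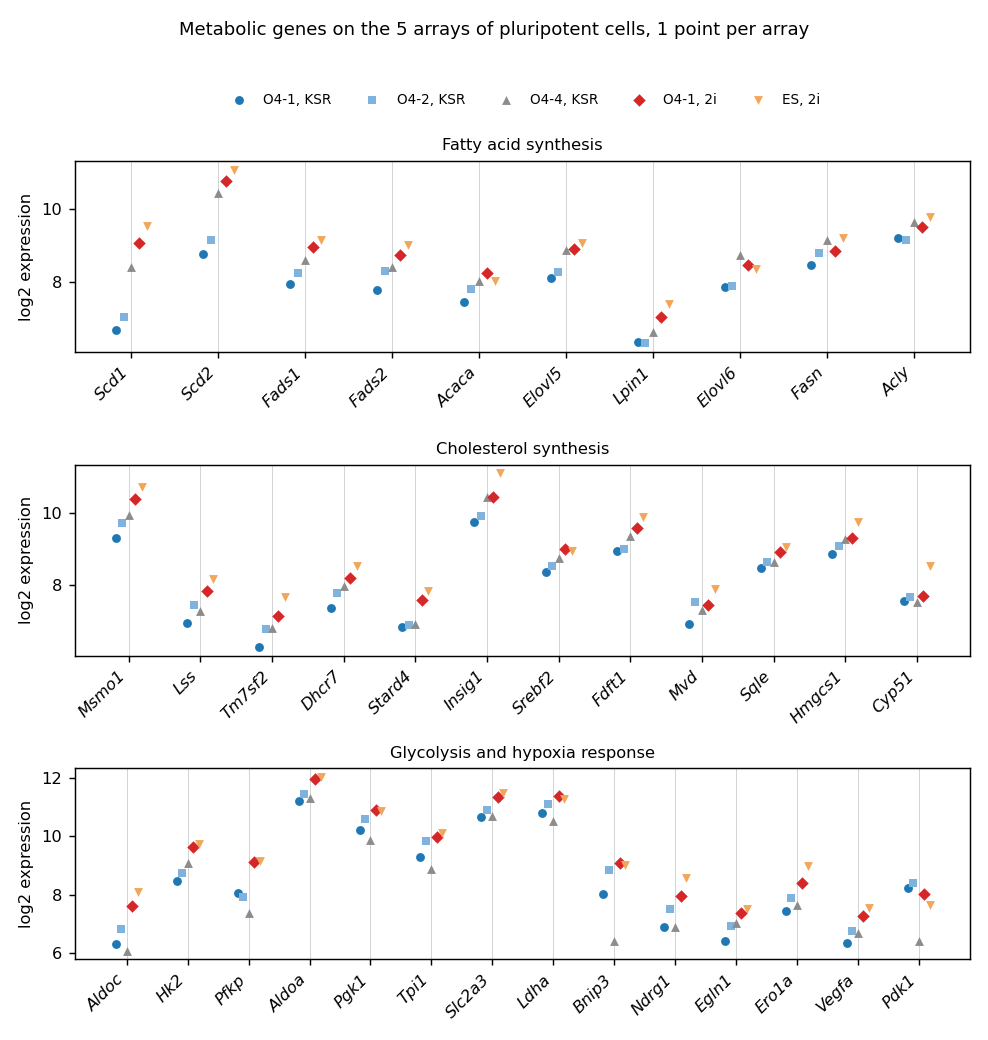
Log2 expression of fatty acid synthesis (top), cholesterol synthesis (middle) and glycolysis and hypoxia response genes (bottom) on the 5 arrays of pluripotent cells, 1 point per array. The red diamonds of O4-1 in 2i lie above all 3 KSR lines in Scd1, Msmo1, Hk2, Aldoa and Pfkp, and O4-4 in KSR (grey) is near to them in Scd1 but lowest in Aldoc and Bnip3.

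Germline genes were lower in 2i in 17 of 28 cases (background 51.9% higher). Of the 28, 6 were 2-fold or more lower (background 0.953%), and the list median was -0.43. Against the mean of the 3 KSR lines the median was -0.05. Sycp1, a protein of the synaptonemal complex of meiosis, was at 7.09 in O4-1 in KSR and 3.92 in 2i, a 9.01-fold difference. It was at 4.57 in O4-2, 5.71 in O4-4 and 3.03 in the ES cells, so O4-1 in KSR was the highest array and the 2i cultures the lowest of the 5. Taf7l, a germ cell form of a general transcription factor subunit, was at 6.68, 5.81 and 4.97 in KSR, 4.80 in 2i and 3.92 in the ES cells. Mael, which guards against transposons in the piRNA pathway, was at 7.72, 6.82 and 5.45 in KSR and 6.13 in 2i, inside the KSR range.

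The remaining 2-fold members were Slc25a31, the germ cell ADP/ATP carrier, Asz1, a piRNA pathway protein, and Dazl, an RNA-binding protein of germ cells, at -1.45, -1.44 and -1.31. Dazl was at 8.16, 6.0 and 7.83 in KSR, 6.85 in 2i and 6.49 in the ES cells. O4-1 was the highest of the 3 KSR lines in all of the 6 but Asz1, and the list median was -0.56 in O4-2 and -0.33 in O4-4 against that array. Ddx4 (Vasa) differed by -0.66. On the upper side were Stra8, the retinoic acid gate to meiosis, at 0.59, and the testis tubulin Tuba3a at 0.64. Usp26, an X-linked deubiquitinase gene named for its size of difference, was at 9.20, 7.98 and 8.57 in KSR, 7.39 in 2i and 4.10 in the ES cells.

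Many germline promoters carry CACGTG, the palindrome read by E-box factors such as the MGA and MAX pair that silences meiotic genes in pluripotent cells. It was searched after values were seen, and was present for 11 of 25 germline genes with a promoter in the table (44.0%) against 8.09% of all genes. Every CACGTG also holds the ACGTG searched above. The promoters of the 3 germline genes with the largest differences that hold it are shown, from RefSeq, build GRCm38.p6, on the strand of the gene, with CACGTG in capitals. Sycp1 lies at chr3:102936051-102936350, Taf7l at chrX:134476441-134476740 and Mael at chr1:166238695-166238994, all on the minus strand.

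Sycp1: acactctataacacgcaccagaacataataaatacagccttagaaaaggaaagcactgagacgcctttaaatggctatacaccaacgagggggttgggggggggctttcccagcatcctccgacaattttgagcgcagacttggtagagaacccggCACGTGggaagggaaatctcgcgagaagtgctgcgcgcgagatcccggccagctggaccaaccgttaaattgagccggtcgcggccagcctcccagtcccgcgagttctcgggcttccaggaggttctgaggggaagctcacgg
Taf7l: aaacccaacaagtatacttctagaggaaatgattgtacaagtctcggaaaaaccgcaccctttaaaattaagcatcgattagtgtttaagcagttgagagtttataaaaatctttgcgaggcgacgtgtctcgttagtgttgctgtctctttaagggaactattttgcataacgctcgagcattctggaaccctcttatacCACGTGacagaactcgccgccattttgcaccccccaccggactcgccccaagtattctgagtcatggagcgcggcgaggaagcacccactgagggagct
Mael: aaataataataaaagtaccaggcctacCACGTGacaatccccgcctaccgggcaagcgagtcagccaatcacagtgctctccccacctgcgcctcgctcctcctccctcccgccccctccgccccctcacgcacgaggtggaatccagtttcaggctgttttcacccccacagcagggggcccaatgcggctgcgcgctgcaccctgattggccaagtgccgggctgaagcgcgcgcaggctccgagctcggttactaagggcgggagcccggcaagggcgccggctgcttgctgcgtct

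The letters began 94 bases before the start in Sycp1, 49 before it in Taf7l and 223 before it in Mael. No methylation or binding was measured at these promoters.

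Of 20 imprinted genes, 5 were 2-fold or more lower in 2i (background 0.953%) and 1 higher (background 0.481%), with a median of -0.43. Meg3, the maternal non-coding RNA of the Dlk1 region, was at 8.65, 9.22 and 6.90 in KSR, 7.16 in 2i and 7.35 in the ES cells, and Rian, from the same region, at 5.88, 6.46 and 4.77 in KSR, 4.70 in 2i and 5.03 in the ES cells. For both, O4-4 in KSR was on the side of the 2i cultures. Mest, Peg10 and Peg3 differed by -1.37, -1.36 and -1.08. The member 2-fold or more higher was Plagl1, a zinc finger gene. It was at 5.99, 5.28 and 7.79 in KSR, 7.20 in 2i and 8.07 in the ES cells. Igf2 and its receptor gene Igf2r differed by -0.60 and 0.02. Arrays measure the total transcript, so the allele that gave it is not known.

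Markers of fibroblasts were lower in O4-1 in 2i than in O4-1 in KSR, beside all of the differences above. Of 27 fibroblast markers 21 were lower and 6 higher (background 51.9% higher), the latter by up to 0.89, with a median of -0.21. Of the 27, 18 lay below every KSR line (background 23.7%) and 5 were 2-fold or more lower (background 0.953%). Their mean level was 8.75 and 9.27 in the fibroblasts, 6.36, 6.38 and 6.67 in the KSR lines, 5.94 in O4-1 in 2i and 6.50 in the ES cells in 2i. Against the mean of the 3 KSR lines the median was -0.62. Col1a1, the main fibrillar collagen, was at 9.17, 9.21 and 10.32 in KSR, 8.90 in O4-1 in 2i and 9.87 in the ES cells. Thy1, a surface marker of fibroblasts, was at 6.17, 5.96 and 5.70 in KSR and 4.71 in 2i, and Pdgfra, a growth factor receptor gene, at 6.44, 5.96 and 5.78 against 5.17. Lum (a proteoglycan) and Tnc (a matrix glycoprotein) differed by -1.38 and -1.35.

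The metalloproteinase gene Mmp3 was at 6.55, 6.09 and 5.49 in KSR and 4.50 in 2i, but at 4.42 and 6.52 in the fibroblasts in FBS and in iCD1, so for this gene the fibroblasts were not above O4-1 in KSR. In a bulk culture, fewer cells of a type and less RNA per cell cannot be told apart. Whether carried-over or feeder fibroblasts had a part in the medium differences was not tested.

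Serum response and contractile genes, many of them high in fibroblasts, were also lower, with a median of -0.42. Of the 19, 13 lay below all KSR lines (background 23.7%). In O4-1, 16 were lower in 2i (background 51.9% higher), 6 of them 2-fold or more (background 0.953%). Beside Acta2, Thbs1 and Cnn2 these were Myl9, a myosin light chain, at 6.27, 6.92 and 5.45 in KSR and 4.67 in 2i, Tagln (transgelin) at 6.26, 7.46 and 5.71 against 4.84, and Tpm1 (tropomyosin) at -1.07. The mean level of the list was 6.72, 7.11 and 6.60 in the KSR lines, 6.14 in O4-1 in 2i and 6.67 in the ES cells in 2i. Thus by the list mean the ES cells in the same medium did not share the low level. Of the members 2-fold or more lower, Acta2 and Tagln were at 6.18 and 4.62 in the ES cells, near O4-1 in 2i. Cnn2, at 7.23 there, also lay under the lowest KSR line, while Thbs1 and Tpm1, at 8.61 and 7.67, did not. Myl9, at 5.44 in the ES cells, was level with the 5.45 of O4-4 in KSR. Ccn2 and Actn1 stood at 0.38 and 0.28.

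Of 23 primitive endoderm genes 17 were lower (background 51.9% higher). Of the 23, 4 were 2-fold or more lower (background 0.953%) and 11 lay below every KSR line (background 23.7%). Their median was -0.40, and -0.16 against the mean of the 3 KSR lines. Cubn (cubilin), an endocytic receptor of visceral endoderm, was at 6.69, 4.87 and 4.31 in KSR, 3.86 in 2i and 3.63 in the ES cells, so O4-1 in KSR stood above the other 4. Lrp2 (megalin), its partner in uptake and not a member of the list, was at 7.45, 7.64 and 5.94 in KSR and 5.47 in 2i. Dab2, an adaptor of the same uptake route, differed by -1.77 on the probe set used and by 0.31 on the other. The lineage factors Gata6, Gata4 and Sox17 differed by -0.40, -0.24 and -0.54, and were at 5.29, 5.50 and 4.23 in 2i, near the array median of 5.00. Lamb1, a laminin chain, differed by -1.03 and Foxa2 by -0.28. Srgn, a proteoglycan gene, was at 6.87, 5.35 and 5.47 in KSR, 5.84 in 2i and 4.83 in the ES cells, so its 2i value lay inside the KSR range.

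Among 23 epithelial adhesion genes, Grhl2, Cldn6 and Esrp1 were 2-fold or more lower (background 0.953%), and 10 lay below every KSR line (background 23.7%). The list median was -0.06, and -0.23 against the mean of the 3 KSR lines. Esrp1, which sets epithelial splice forms, was at 8.03, 8.09 and 6.21 in KSR, 6.20 in 2i and 5.46 in the ES cells. Epcam, a surface protein of epithelial and pluripotent cells, differed by -0.95, and Cdh1 (E-cadherin), which holds colonies together, by -0.27. Of 16 p53 targets 15 were lower and 1 higher (background 51.9% higher), with a median of -0.26, or -0.16 against the mean of the 3 KSR lines. From the same O4-1 KSR array, the p53 list median was 0.01 in O4-2 and -0.37 in O4-4 in KSR, and -0.08 in the ES cells in 2i. Plk2, a kinase gene, was at 8.77, 8.51 and 7.84 in KSR, 7.69 in O4-1 in 2i and 8.75 in the ES cells, and the proapoptotic gene Pmaip1 (Noxa) differed by -0.93. The p53 feedback gene Mdm2 stood at -0.06.

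Iron genes were lower in 9 of 12 cases (background 51.9% higher), with a median of -0.24. Slc40a1 (ferroportin), the iron exporter, was at 5.75, 6.04 and 4.28 in KSR and 3.95 in both 2i cultures, and Slc39a14, a metal importer, at 7.81, 7.64 and 6.0 in KSR, 6.47 in O4-1 in 2i and 6.03 in the ES cells. Fth1 (ferritin heavy chain) differed by -0.48 and Tfrc, the transferrin receptor, by -0.20. Interferon genes had a median of -0.13 over 19 genes, or -0.28 against the mean of the 3 KSR lines. Ddx58 (RIG-I), a sensor of viral RNA, was at 7.44, 6.56 and 6.40 in KSR, 6.10 in 2i and 5.49 in the ES cells, and Irf1 differed by -0.96.

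**Figure D5:**
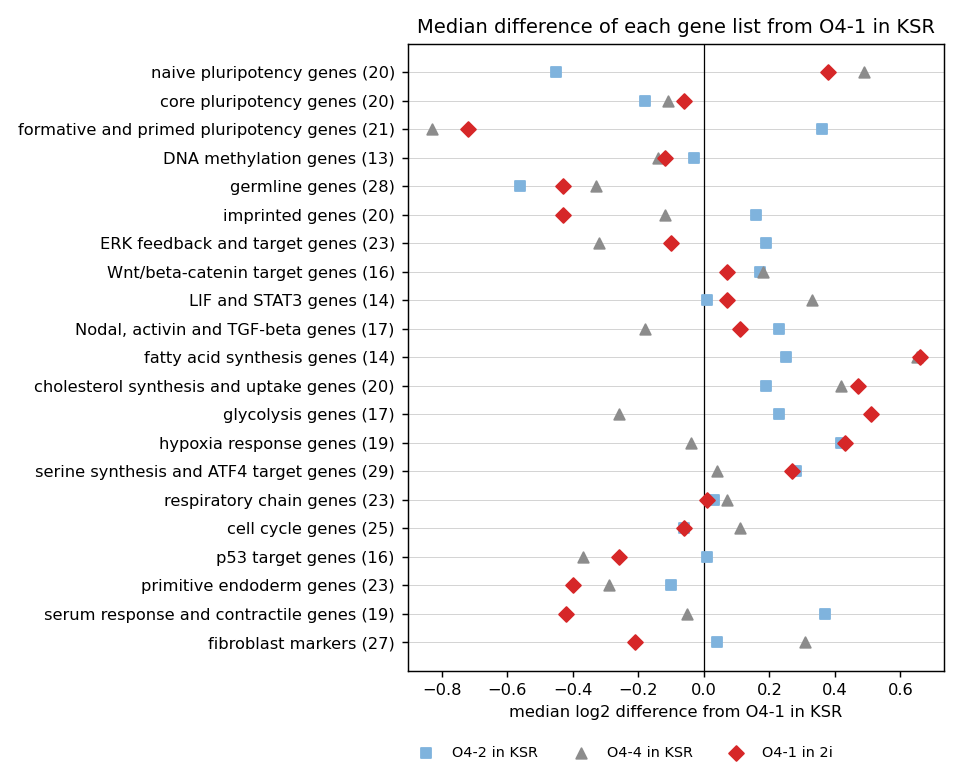
Median log2 difference from O4-1 in KSR of the members of 21 gene lists (number measured in brackets), for O4-1 in 2i (red), O4-2 in KSR (light blue) and O4-4 in KSR (grey), 1 array each, all against the same O4-1 KSR array. O4-1 in 2i and O4-4 lie close together for naive (0.38 and 0.49), formative (-0.72 and -0.83) and fatty acid genes (0.66 and 0.65) and on opposite sides of 0 for glycolysis (0.51 and -0.26) and fibroblast genes (-0.21 and 0.31).

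Several other lists had medians near 0. Cell cycle genes had a median of -0.06 over 25 genes and unfolded protein and heat shock genes one of -0.04 over 15, with none 2-fold apart in either. Hox genes, which pattern the body axis, had 0.07 over 28, neural genes -0.15 over 15, trophoblast genes 0.11 over 12 and primitive streak genes 0.00 over 15, again with none 2-fold apart. Markers of macrophages, endothelium, muscle and erythroid cells also had none. Of the retinoid genes Crabp2, a retinoic acid carrier, was lower at 6.53 in KSR and 5.41 in 2i, and of the keratinocyte markers Lor was higher at 3.50 against 4.94, under the array median.

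Other genes with the largest differences belonged to no list. Ly75, an endocytic receptor known from dendritic cells, was at 5.80, 5.70 and 7.99 in KSR, 8.07 in 2i and 8.73 in the ES cells, a 4.82-fold difference within O4-1. Kit, the receptor for stem cell factor, was at 7.48, 6.98 and 9.56 in KSR, 9.0 in 2i and 9.18 in the ES cells. Lrrc34, a leucine-rich repeat gene, was at 6.11, 5.50 and 7.44 in KSR, 7.73 in 2i and 7.84 in the ES cells. In all 3 the lines O4-1 and O4-2 were low in KSR and O4-4 was nearer to the 2i cultures. Cmtm7, the peptide transporter gene Slc15a1 and Fam81a had the same layout, with differences of 1.58, 1.52 and 1.30.

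A smaller set separated the 2i cultures from all KSR lines. Alpk3, an alpha-kinase gene, was at 4.87, 4.97 and 5.68 in KSR, 6.47 in 2i and 6.94 in the ES cells, and Lrrc31 at 4.28, 4.30 and 5.23 in KSR against 5.86 and 6.60. The histone gene H2bc9, one of a family of near-identical copies whose signal the probes may share, was at 4.38, 5.38 and 5.21 in KSR and 5.95 in 2i. Zhx2, a transcriptional repressor gene, was at 4.58, 5.53 and 4.75 in KSR and 5.88 in O4-1 in 2i, but at 5.05 in the ES cells. Obox6, an oocyte homeobox gene, differed by 1.55 on the probe set used and by -0.23 on the other, so its direction rests on the choice of probe set.

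On the lower side, Enpp3 was at 8.03 and 8.72 in O4-1 and O4-2 in KSR, 4.81 in O4-1 in 2i, 3.81 in O4-4 in KSR and 4.37 in the ES cells. The carbonic anhydrase genes Car4 and Car2 were at 6.65, 7.83 and 4.06 and at 7.37, 8.07 and 5.21 in KSR, against 4.13 and 5.17 in O4-1 in 2i. Map7d3, a microtubule-associated protein gene, and Usp44, a deubiquitinase gene, differed by -2.05 and -1.87, with O4-4 in KSR at 3.49 and 4.85 below the 2i values of 3.57 and 5.16. In each of these O4-4 lay nearer to O4-1 in 2i than to O4-1 in KSR, and O4-2 was above O4-1 in 2i. Ina, a neuronal intermediate filament gene, was different: at 8.07, 8.10 and 6.94 in KSR, 5.99 in 2i and 5.88 in the ES cells, all KSR lines were above both 2i cultures, and its probe sets gave -2.09 and -1.90.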

How the data were processed

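Each of 7 Affymetrix arrays measured 1 culture, from 100 ng of Trizol-extracted RNA labelled with the whole transcript assay, per the labels' protocols. The authors deposited log2 expression per probe set; the submitters' processing notes name RMA and Partek. Their versions and the build of the array annotation were not given in the sources used here. Values were used as deposited. Array medians lay between 4.97 and 5.03, and no pair of arrays was identical. The number of arrays limits the precision.

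The table held 28853 probe sets: 21789 with 1 symbol, 1621 with several and 5443 not in the annotation table. Of those with 1 symbol, 21698 matched a gene ID in RefSeq (GRCm38.p6), and 19938 genes remained, 999 of them with several probe sets. Differences, folds, counts and medians were computed in Python 3.11.15 with pandas 2.3.3 and numpy 2.4.6, and the counting was checked on simulated data. No test was run, as each medium had 1 array of O4-1. KSR SDs are over 3 lines.

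The 43 gene lists had 797 entries, 66 of them not measured, 7 found through a synonym and 3 left out because the synonym names another gene. The members and lists were chosen with earlier results of these data known. Named genes were the 20 largest differences each way with the higher value at or above the median of all genes on its array, any list member, and the genes 2-fold beyond all KSR lines. The latter, and the motifs CCAAT and CACGTG, were chosen after values were seen. Alternatives tried were other fold thresholds, a level filter, centring, quantile normalization, the mean of probe sets, another KSR reference and leaving out a KSR line.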

Additional observations from a re-analysis of the deposited data

How the results depend on the processing

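The counts of genes 2-fold or more apart stayed within 1.5 times of 96 higher and 190 lower after centring the arrays (96 and 191), after quantile normalization (109 and 190) and with the mean of all probe sets of a gene (91 and 186). The counts beyond all KSR lines were 6 and 11, 6 and 13, and 8 and 10 there. Thresholds moved them by construction: at 1.5-fold, 835 genes were higher, 895 lower, 103 above and 140 below all KSR lines, and at 3-fold 14, 30, 0 and 2. With only the upper part of genes by mean level (from the median of means up), 43 were higher, 117 lower, 1 above and 8 below all KSR lines. With the mean of the 3 KSR lines, 36 genes were higher and 94 lower, and with O4-1 in KSR left out (without replicate 1, O4-2 and O4-4 as the reference) 37 and 98, of which 22 and 50 were among the main ones. Leaving out 1 KSR line at a time gave 10 to 38 genes above and 22 to 102 below the remaining lines, the highest counts without O4-4. No count reversed, and the cause of these shifts was not tested. Of the 40 named differences, none changed sign with quantile normalization, the mean of probe sets or the KSR mean, and 40, 39 and 33 stayed 2-fold. List medians of 0.2 or more in size kept their sign under the alternatives run on them (a level filter, centring, quantile normalization, the mean of probe sets and the KSR mean). No paired analysis was possible because each medium had 1 array of O4-1. Depth has no counterpart here, and no signal over background is given, which limits genes under the array median.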

Other observations

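Probe sets without a gene name held differences of the same size as the named genes. Of the 5443 probe sets not in the annotation table, 22 were higher by 2-fold or more in O4-1 in 2i than in KSR and 58 were lower (1.47% in all, beside 1.43% of named genes), with differences from -2.25 to 1.79. Of these, 4 lay 2-fold or more above and 3 below all KSR lines. Among the 1621 probe sets with several gene symbols, 5 were higher and 55 lower (3.70%), from -2.32 to 1.43, and 1 lay 2-fold or more above all KSR lines.

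The direction of the difference went with the level. Among genes whose higher value of the pair was under the median of all genes on that array, 44 were 2-fold or more higher in 2i and 33 lower. At or above that level 52 were higher and 157 lower.

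Of the 286 genes 2-fold apart, 13 had several probe sets. All of the probe sets were 2-fold apart in the same direction for 3 genes, had the same sign for 8, and differed in sign for 5 (Adgrl2, Dab2, Dnah7b, Etfbkmt and Obox6). Adgrl2, an adhesion receptor gene, had 8 probe sets, which gave differences from -1.53 to 0.11. Both probe sets of Qser1 were lower in 2i, by -1.14 and -1.32.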
